A study of Mus musculus with 10 samples.

Results

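The 9 genes described here encode parts of the B cell receptor complex and proteins that mark or define B cells: Cd79a, Cd79b, Ms4a1, Pax5, Blk, Fcrla, Cr2, Bank1 and Mzb1. They were chosen by name from the 28454 gene symbols of the expression files, with earlier results of these data known. Shares over all genes given beside theirs are therefore a description. Each of the 9 was present in every library. The libraries are total RNA from CD31+ cells of B16F10 melanomas, a pigmented mouse tumour line, isolated with magnetic beads after cells carrying CD11b, a myeloid surface protein, had been depleted. Of the 10 libraries, 6 came from tumours grown on Shb-inactivated adult mice, whose strain label is Shbflox/flox/Cdh5-CreERt2, and 4 from tumours grown on wild-type adult mice, whose strain label is Cdh5-CreERt2. Both groups therefore carried the Cre transgene driven by Cdh5, a gene of vascular endothelium, and the tumour cells themselves were of the injected line. Cre driven from Cdh5 can also act in blood cells that descend from endothelium, depending on when it is induced, and the time of induction is not given in the sources used here. Nothing in the labels says whether each library came from 1 mouse, so a p-value here measures the library-to-library spread, which may be technical. B cells are not a labelled cell type of the series, and the level of a B cell transcript in such a bulk sample can change with fewer B cells or with less RNA per cell, which cannot be told apart.

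A B cell recognises antigen through membrane immunoglobulin, whose heavy chain is made from Ighm in naive cells. The immunoglobulin has almost no cytoplasmic tail and signals through a heterodimer of CD79A and CD79B, whose tails are phosphorylated by Src-family kinases such as BLK and then recruit SYK. Complement receptor 2, the product of Cr2, is part of a complex that lowers the threshold for that signal, BANK1 is a scaffold within it, and PAX5 is the transcription factor that holds cells in the B lineage and activates Cd79a and Blk. Mature B cells circulate through tissues and can gather in tumours, and CD31 is carried by endothelium and at lower levels by several leukocytes.

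Promoters of the genes are given first, as the 250 bases before the RefSeq start site on GRCm38.p6. Whether their letters bear on the levels below was not tested. RefSeq windows were at hand for 5 of the 9 genes, namely Cd79a, Cr2, Bank1, Fcrla and Pax5, and those of 3 are printed because each holds more than 1 of the 4 motifs searched. The motifs were the octamer ATGCAAAT bound by OCT proteins, the EBF core CCCNNGGG, the ETS core GGAAGT and the E-box CACCTG read by E2A, each looked for on both strands, and none overlapped another in these windows. Sequences run 5′ to 3′ on the strand of the gene, and capitals mark the motif matches.
Cd79a promoter, chr7:24897247-24897496, plus strand: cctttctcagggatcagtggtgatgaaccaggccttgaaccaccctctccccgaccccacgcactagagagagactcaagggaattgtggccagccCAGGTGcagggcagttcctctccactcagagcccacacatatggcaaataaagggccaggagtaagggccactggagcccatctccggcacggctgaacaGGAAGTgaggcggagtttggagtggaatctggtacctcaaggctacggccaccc
Cr2 promoter, chr1:195176720-195176969, minus strand: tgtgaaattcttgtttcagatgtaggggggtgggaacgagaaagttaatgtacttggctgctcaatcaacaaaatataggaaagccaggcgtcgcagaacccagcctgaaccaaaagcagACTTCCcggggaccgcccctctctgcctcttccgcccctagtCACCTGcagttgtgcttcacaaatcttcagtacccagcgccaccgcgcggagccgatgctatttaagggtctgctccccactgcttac
Bank1 promoter, chr3:136326067-136326316, minus strand: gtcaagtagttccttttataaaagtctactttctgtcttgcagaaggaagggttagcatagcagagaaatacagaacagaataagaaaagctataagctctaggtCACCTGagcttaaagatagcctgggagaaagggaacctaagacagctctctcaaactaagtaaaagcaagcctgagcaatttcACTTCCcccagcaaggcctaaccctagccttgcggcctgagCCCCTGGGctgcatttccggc
In Cd79a the E-box lay at -154 to -149 and the ETS core at -54 to -49, counted back from the RefSeq start site. GENCODE places the start of Cd79a upstream of the RefSeq one, within the printed window, so that this ETS core lies inside the GENCODE gene and the E-box before it. Cr2 held the ETS core at -130 to -125 and the E-box at -88 to -83. Bank1 carried the E-box at -145 to -140, the ETS core at -62 to -57 and the EBF core at -21 to -14. Fcrla had an E-box at -69 to -64, and these letters were not found in the Pax5 window. Among all 32851 promoter windows of the same length, 17.2% held the E-box, 19.7% the ETS core, 11.8% the EBF core and 1.60% the octamer. A match is a match of letters and says nothing of whether a factor was bound in these cells.

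The 9 genes were all lower on average in tumour CD31+ cells from Shb-inactivated mice than from wild-type mice, by 1.78-fold to 2.52-fold in mean FPKM (fragments per kilobase of transcript, scaled to the mapped fragments of the library), and no gene of the 9 passed the test across all genes. The levels were low and uneven: 3 of the 6 Shb-inactivated libraries, replicates 3, 4 and 5, held the lowest 3 values of every one of the 9 genes, while Shb-inactivated replicates 1 and 2 lay within the wild-type range, except for Mzb1 in replicate 1. In limma on log2(FPKM + 1), with Benjamini-Hochberg adjustment over the 12805 genes that reached 1 FPKM in 4 or more libraries, 0 of the 9 genes had an adjusted p under 0.05, and the percentage of all tested genes called was also 0. Each of the 9 had an adjusted p of 0.989. Without adjustment, limma's p was under 0.05 and the difference negative for 4 of the 9, Cd79b, Fcrla, Bank1 and Mzb1, against 1.76% of all tested genes. A lower mean was found in 9 of 9, against 48.8% of all tested genes. The median log2 fold change was -0.69 over the 9 and 0.01 over all tested genes. The 9 genes rose and fell together across the libraries, with a median pairwise Spearman correlation of 0.90. Their counts therefore do not stand for 9 separate observations. The values of the groups overlapped for each of the 9, and 0.18% of tested genes were lower in the Shb-inactivated libraries with no overlap. All 9 genes passed the filter on low values.

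Shb, the gene targeted, had 0.97, 1.37, 0.64, 1.44, 0.37 and 0.86 FPKM in Shb-inactivated replicates 1 to 6, against 5.44, 3.27, 2.78 and 3.24 FPKM in wild-type replicates 1 to 4. The groups did not overlap, the difference was -1.27 on the log2(FPKM + 1) scale (SE 0.21), and the exact two-sided permutation test over all 210 assignments gave p = 0.00476, the smallest it can give. Across the 10 libraries, FPKM values summed to between 477329 and 576687, and Spearman correlations between libraries ran from 0.892 to 0.951. Shb-inactivated replicates 3 and 4 and wild-type replicate 3 were rich in macrophage transcripts, with 3650 to 5534 FPKM summed over 10 macrophage markers against 27.3 to 511 FPKM in the other libraries. Shb-inactivated replicates 1 and 2 and wild-type replicate 1 had 16 or 17 of 47 small nucleolar RNA genes above 0, against 28 to 39 in the other libraries. These same 3 libraries were among the higher ones for the B cell genes, so the values without them are given below. Endothelial markers summed to between 3025 and 4081 FPKM in Shb-inactivated libraries and between 2423 and 3342 FPKM in wild-type libraries. Pecam1, which encodes CD31, averaged 963 ± 137 FPKM in Shb-inactivated (SD, n = 6) and 759 ± 138 FPKM in wild-type libraries (SD, n = 4), so the labelled endothelial marker was abundant in both groups. Itgam, which encodes CD11b, was 29.3 and 35.9 FPKM in Shb-inactivated replicates 3 and 4, 109 FPKM in wild-type replicate 3, and at most 5.85 FPKM in the other libraries.

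**Figure D1:**
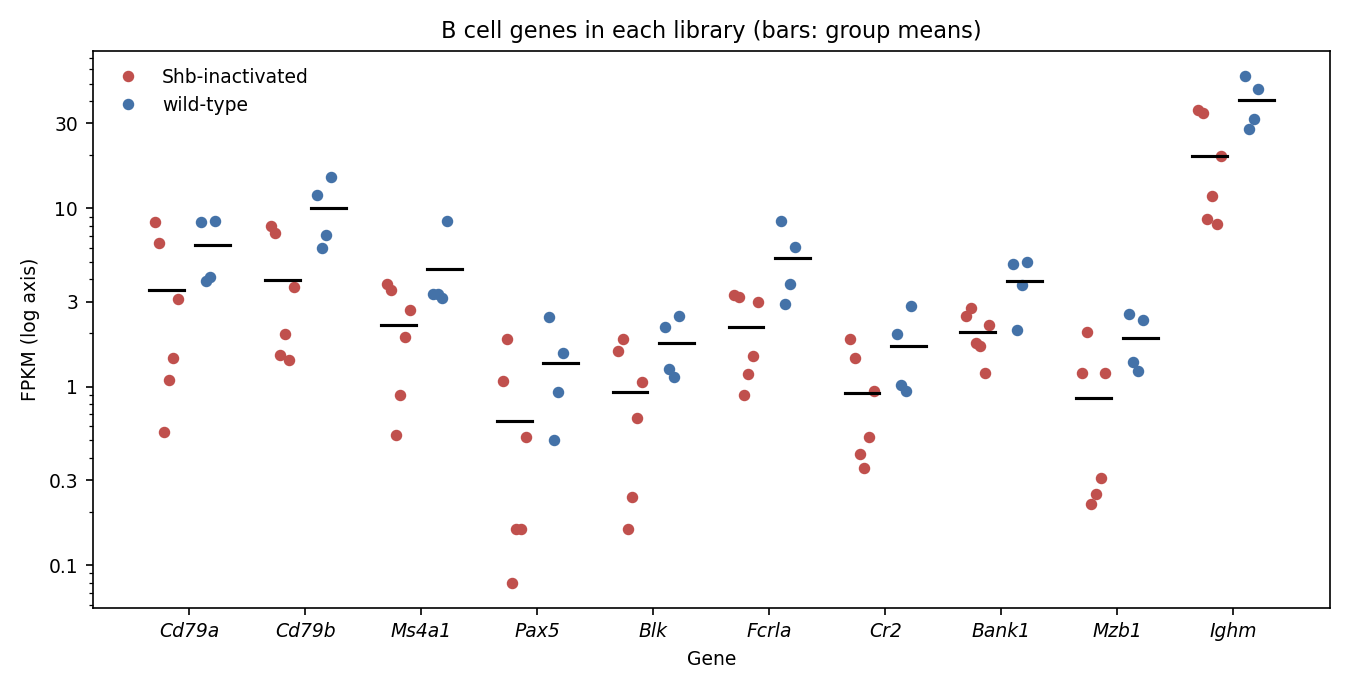
FPKM on a log axis of the 9 B cell genes and Ighm in each of 6 Shb-inactivated (red, left of each pair) and 4 wild-type (blue, right) libraries, with a black bar at each group mean. For every gene the group mean is lower in the Shb-inactivated libraries, and the highest Shb-inactivated values lie within the wild-type range.

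The signalling pair of the receptor had the highest mean levels of the 9 genes, and Cd79b the largest log2 difference. Cd79a (chr7:24897381-24902197, plus strand) had 8.35, 6.42, 0.56, 1.09, 1.45 and 3.11 FPKM in the Shb-inactivated libraries, against 8.35, 3.92, 4.15 and 8.5 FPKM in the wild-type libraries. In 4 of the 6 Shb-inactivated libraries the value was below the lowest wild-type one, and replicate 1 equalled wild-type replicate 1. Its means were 3.50 ± 3.19 FPKM in Shb-inactivated (SD, n = 6) and 6.23 ± 2.54 FPKM in wild-type libraries (SD, n = 4), a log2 fold change of -0.93 (SE 0.51, exact permutation p = 0.143). Cd79b (chr11:106311341-106314762, minus strand) had 7.95, 7.31, 1.51, 1.97, 1.42 and 3.61 FPKM in the Shb-inactivated libraries, against 11.87, 5.99, 7.06 and 15.04 FPKM in the wild-type libraries. Here the pair of Shb-inactivated libraries that reached into the wild-type range stayed below the higher 2 wild-type libraries. Means were 3.96 ± 2.96 FPKM in Shb-inactivated (SD, n = 6) and 9.99 ± 4.23 FPKM in wild-type libraries (SD, n = 4). At -1.28 (SE 0.44, 95% interval -2.24 to -0.31), its log2 fold change was the most negative of the 9, with an exact permutation p of 0.0524.

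The ratio of Cd79b to Cd79a FPKM was 0.95, 1.14, 2.70, 1.81, 0.98 and 1.16 in Shb-inactivated replicates 1 to 6, and 1.42, 1.53, 1.70 and 1.77 in wild-type replicates 1 to 4. The wild-type ratios were close to each other, and the Shb-inactivated ones spread on both sides of them. The highest ratio belonged to the library in which Cd79a was lowest.

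Ms4a1 and Cr2, surface markers of mature B cells, were also lowest in Shb-inactivated replicates 3, 4 and 5. Ms4a1 (chr19:11249675-11266241, minus strand) encodes CD20, a membrane protein of mature B cells. Its values were 3.78, 3.49, 0.54, 0.90, 1.91 and 2.71 FPKM in the Shb-inactivated libraries, against 3.31, 3.30, 3.16 and 8.49 FPKM in the wild-type libraries. Wild-type replicates 1, 2 and 3 lay within a narrow band that the higher 2 Shb-inactivated libraries exceeded, and wild-type replicate 4 stood above all others. The log2 fold change was -0.81 (SE 0.37, exact permutation p = 0.1), and -0.52 without wild-type replicate 4. Cr2 (chr1:195136811-195176716, minus strand), which encodes complement receptor 2, had 1.86, 1.45, 0.42, 0.35, 0.52 and 0.95 FPKM in the Shb-inactivated libraries, against 1.98, 1.02, 0.95 and 2.83 FPKM in the wild-type libraries. Shb-inactivated replicates 3, 4 and 5 were below every wild-type library, replicate 6 tied with the lowest, and the log2 fold change was -0.49 (SE 0.28, exact permutation p = 0.138), or -0.30 without wild-type replicate 4. Follicular dendritic cells also carry Cr2. Of 4 of their markers in the files, Mfge8 (119 to 254 FPKM in Shb-inactivated and 143 to 202 FPKM in wild-type libraries) and Clu (38.7 to 87.2 FPKM in Shb-inactivated and 42.0 to 70.1 FPKM in wild-type libraries), which other cells also express, were tested. Both had a higher mean in Shb-inactivated libraries, with a median log2 fold change of 0.12 and 0 past the adjusted test. Cxcl13 and Madcam1 were at most 0.54 and 0.57 FPKM in any library. The part of these cells in the Cr2 values was not tested.

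Of the 2 signalling genes near the receptor, Blk (chr14:63372836-63417037, minus strand), the Src-family kinase, had 1.59, 1.86, 0.16, 0.24, 0.67 and 1.06 FPKM in the Shb-inactivated libraries, against 2.16, 1.26, 1.13 and 2.48 FPKM in the wild-type libraries. Shb-inactivated replicates 3 to 6 lay below the wild-type range and replicates 1 and 2 within it (log2 fold change -0.57, SE 0.29, exact permutation p = 0.105). Bank1 (chr3:136053363-136326066, minus strand), the scaffold, had 2.48, 2.76, 1.75, 1.70, 1.2 and 2.21 FPKM in the Shb-inactivated libraries, against 4.85, 2.09, 3.70 and 5.03 FPKM in the wild-type libraries. It varied least of the 9, with a highest library 4.19 times the lowest, and 3 Shb-inactivated libraries exceeded wild-type replicate 2 alone. Means were 2.02 ± 0.573 FPKM in Shb-inactivated (SD, n = 6) and 3.92 ± 1.35 FPKM in wild-type libraries (SD, n = 4), for a log2 fold change of -0.68 (SE 0.22). Its exact permutation p, 0.0286, was the lowest of the 9 and is not adjusted for the number of genes.

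Fcrla and Mzb1 encode proteins that stay inside the cell: FCRLA is an Fc receptor-like protein of B cells, and MZB1 is an endoplasmic reticulum protein that assists immunoglobulin assembly in marginal zone B cells and plasma cells. Fcrla (chr1:170917576-170927583, minus strand) had 3.25, 3.19, 0.90, 1.18, 1.49 and 2.98 FPKM in the Shb-inactivated libraries, against 8.44, 2.91, 3.76 and 6.09 FPKM in the wild-type libraries. Only wild-type replicate 2 lay within the Shb-inactivated range. Means were 2.17 ± 1.09 FPKM in Shb-inactivated (SD, n = 6) and 5.30 ± 2.49 FPKM in wild-type libraries (SD, n = 4), a log2 fold change of -0.99 (SE 0.32, exact permutation p = 0.0381, unadjusted). Mzb1 had 1.2, 2.02, 0.22, 0.25, 0.31 and 1.2 FPKM in the Shb-inactivated libraries, against 2.56, 1.38, 1.23 and 2.37 FPKM in the wild-type libraries. Shb-inactivated replicate 2 alone was within the wild-type range, and the log2 fold change was -0.69 (SE 0.29, exact permutation p = 0.0476, unadjusted). In the GENCODE annotation Mzb1 shares 695 exon bases with Spata24 on the same strand, a gene at 2.58 to 5.62 FPKM here, so the Mzb1 values are uncertain.

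Pax5 (chr4:44524757-44710487, minus strand) was the lowest of the 9 in mean level and had the widest range, its highest library being 30.9 times its lowest. It had 1.08, 1.86, 0.08, 0.16, 0.16 and 0.52 FPKM in the Shb-inactivated libraries, against 2.47, 0.50, 0.94 and 1.54 FPKM in the wild-type libraries. Wild-type replicate 2 was lower than Shb-inactivated replicates 1, 2 and 6, and the log2 fold change was -0.55 (SE 0.33, exact permutation p = 0.171, the highest of the 9), or -0.34 without wild-type replicate 1. At these levels the pseudocount of 1 holds the log2 fold change close to 0: the ratio of mean FPKM was 0.472 in Shb-inactivated over wild-type libraries. Pax5 shares 636 exon bases with 5730488B01Rik on the opposite strand, which was at most 0.15 FPKM, and whether the counting used strand is not given in the sources used here.

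**Figure D2:**
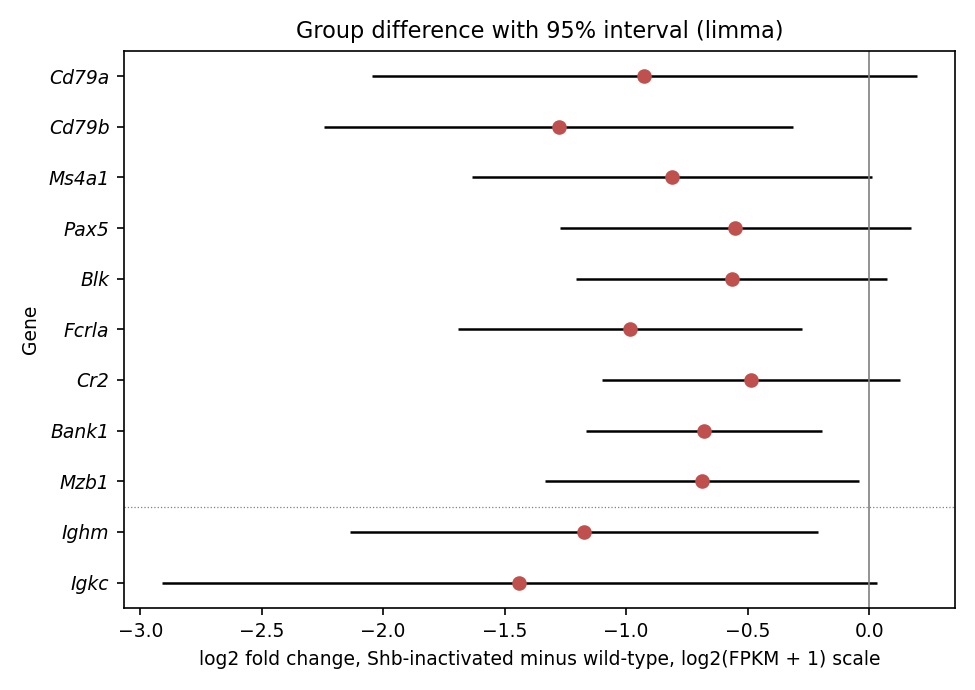
Difference in mean log2(FPKM + 1), Shb-inactivated minus wild-type, of each B cell gene (points) with its 95% interval from limma (lines), and below the dotted line the same for Ighm and Igkc. All points are negative, from -0.49 for Cr2 to -1.28 for Cd79b among the 9 genes, and the intervals of Cd79b, Fcrla, Bank1 and Mzb1 end below 0 before adjustment.

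The count of genes under 0.05 without adjustment depended on which libraries entered. It was 8 of 9 without Shb-inactivated replicate 1 and 8 of 9 without Shb-inactivated replicate 2, 3 or 4 of 9 without any other single library, and 1 of 9 without the 3 libraries rich in macrophage transcripts. With the macrophage level as a covariate it was 9 of 9. Over all 12805 tested genes, in either direction, 449 had an unadjusted p under 0.05 without Shb-inactivated replicate 1 and 452 without Shb-inactivated replicate 2. The number was 254 to 676 without any other single library, 680 without the macrophage-rich libraries and 600 with the macrophage covariate. In every one of these settings the adjusted count was 0 of 9. Leaving out the 3 libraries low in small nucleolar RNAs was an alternative chosen after seeing the data. It left 4 Shb-inactivated and 3 wild-type libraries, and the count was then 9 of 9, against 554 of all 12805 tested genes in either direction. In that set Cd79a, Cd79b, Ms4a1, Blk and Mzb1 were lower in every Shb-inactivated than in every wild-type library. This is 5 of 9 genes, against 3.46% of all tested genes. The set leaves out Shb-inactivated replicates 1 and 2, which lay within the wild-type range except for Mzb1 in replicate 1. Less overlap of the 9 genes therefore follows in part from the choice of libraries. Cd79b then differed by -1.68 on the log2 scale (exact permutation p = 0.0286, the smallest that 4 against 3 allows). It had 3.61 FPKM in the highest Shb-inactivated and 5.99 FPKM in the lowest wild-type library. For the others of the 9 the exact permutation p in this set was higher, from 0.0571 to 0.0857. The 3 libraries left out comprised 2 Shb-inactivated and 1 wild-type library, too few to compare among themselves, and the part of the small nucleolar RNA difference in the result was not tested.

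Ighm, the heavy chain of the receptor, had 35.73, 34.13, 8.77, 11.78, 8.21 and 19.62 FPKM in the Shb-inactivated libraries, against 55.12, 27.67, 31.88 and 46.74 FPKM in the wild-type libraries (log2 fold change -1.17, SE 0.43, exact permutation p = 0.0524). Igkc, the kappa light chain, differed by -1.44 (SE 0.66). Each of the 9 genes followed Ighm from library to library. Spearman's rho over the 10 libraries was 0.99 for Cd79b, the highest of 12804 genes, and 0.94 for Cd79a. It was 0.93 for Pax5 and Blk, 0.92 for Fcrla, Cr2 and Bank1, 0.88 for Ms4a1 and 0.86 for Mzb1. The median rho was 0.92 over the 9 genes and 0.03 over all genes, and 225 of the 12804 genes reached the lowest rho among the 9.

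On log2(FPKM + 1), Pearson's r with Ighm ran from 0.83 for Ms4a1 to 0.99 for Cd79b. Permutation tests with 100000 resamples gave unadjusted p between 1e-05, the smallest possible, and 0.00163 for r, and between 2e-05 and 0.0024 for rho. After Benjamini-Hochberg adjustment over the 12804 genes, r passed 0.05 for 6 of the 9, namely Cd79a, Cd79b, Pax5, Blk, Fcrla and Mzb1, against 0.609% of all genes. None of the 9 passed for rho, whose adjusted p ran from 0.064 to 0.0878, and the percentage of all genes that passed was 0. All 9 had an unadjusted p under 0.05 for rho with a positive sign, against 11.8% of all genes. Leaving out the 2 libraries farthest from the median Ighm level, Shb-inactivated replicates 3 and 5, r ran from 0.80 to 0.98. Within the 6 Shb-inactivated libraries alone, rho ran from 0.72 for Mzb1 (exact permutation p = 0.122) to 1.00 for Cd79b (exact permutation p = 0.00278). The 4 wild-type libraries were too few for a correlation.

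**Figure D3:**
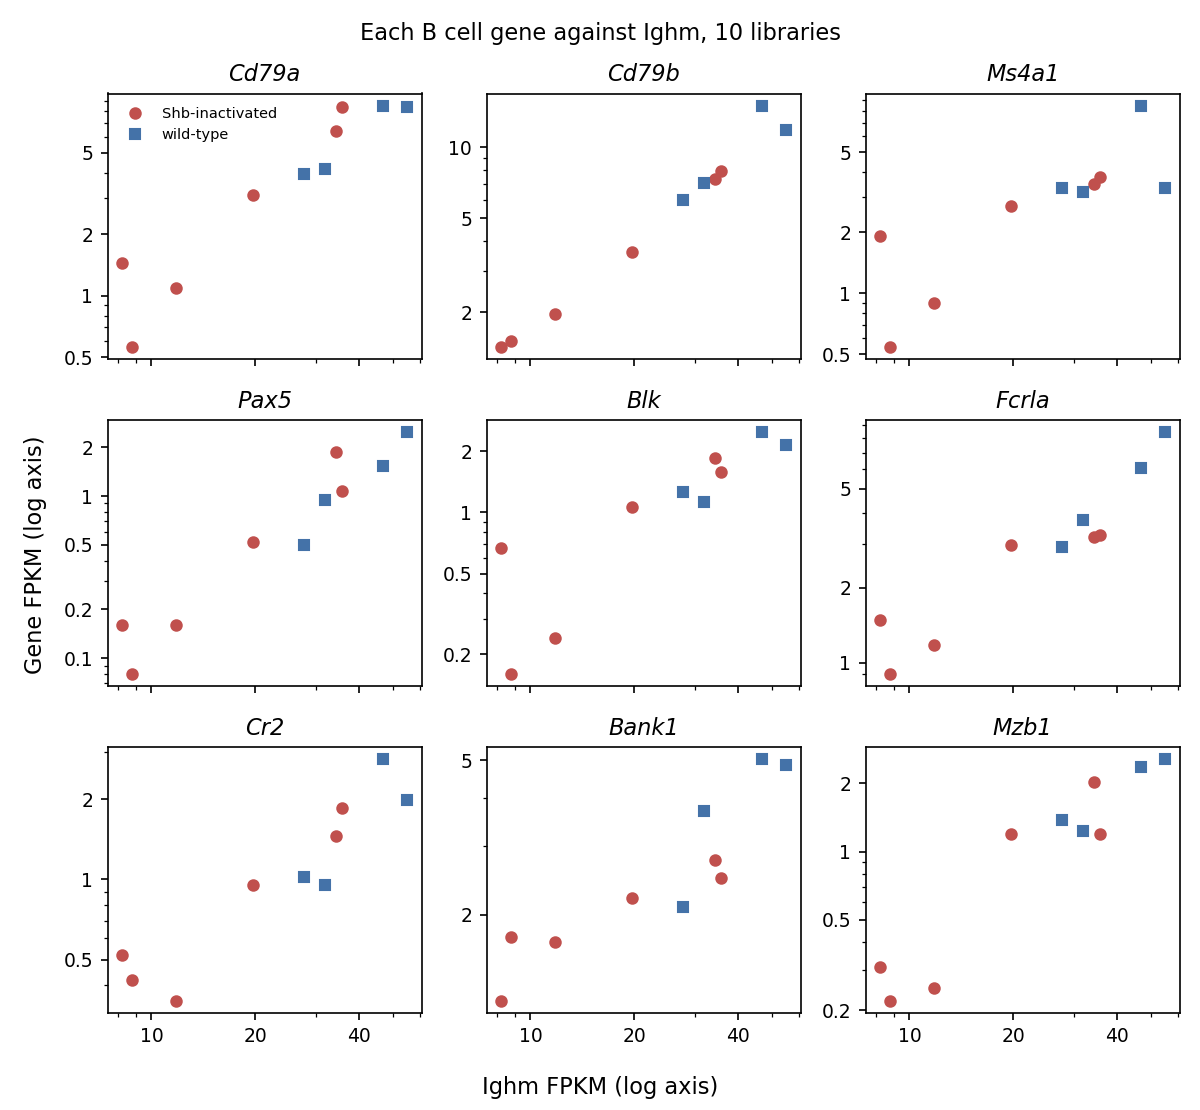
FPKM of each of the 9 B cell genes against Ighm FPKM, both on log axes, in 6 Shb-inactivated (red circles) and 4 wild-type (blue squares) libraries. Cd79b lies closest to a line, with a Spearman rho of 0.99, and Ms4a1 is the least linear, with a Pearson r of 0.83.

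Divided by Ighm FPKM, the 9 genes had differences of mean log2 ratio, Shb-inactivated minus wild-type, from -0.45 for Pax5 to 0.30 for Bank1. Cd79a was 15.2% ± 6.31 of the Ighm FPKM in Shb-inactivated (SD, n = 6) and 15.1% ± 2.22 in wild-type libraries (SD, n = 4). Ms4a1 was 11.9% ± 6.14 in Shb-inactivated and 11.5% ± 5.08 in wild-type libraries, and Fcrla 12.0% ± 3.75 in Shb-inactivated and 12.7% ± 2.04 in wild-type libraries. Cd79b was 18.9% ± 2.36 in Shb-inactivated and 24.4% ± 5.21 in wild-type libraries. Its Shb-inactivated values ran from 16.7% to 22.3% and its wild-type values from 21.5% to 32.2%, so the groups overlapped. These ratios were computed after the values had been seen and are given without a test. Bank1 was relatively high in the libraries with little Ighm, at 19.95% in Shb-inactivated replicate 3, and ranged from 6.94% to 19.95% in Shb-inactivated and from 7.55% to 11.6% in wild-type libraries.

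Among themselves the 9 genes gave 36 pairs, whose Spearman correlations over the 10 libraries ran from 0.78 to 0.97 with a median of 0.90. These values share library and scaling and are given as a description. Wild-type replicates 1 and 4 were among the highest 4 libraries for all 9 genes, and Shb-inactivated replicate 6 was always the sixth or seventh of 10. Summed over the 9 genes, the level was 31.5, 30.4, 6.14, 7.84, 9.13 and 18.4 FPKM in Shb-inactivated replicates 1 to 6, against 46.0, 22.4, 26.1 and 52.4 FPKM in wild-type replicates 1 to 4.

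Among the genes whose log2 level was most like the mean of the 9, by Pearson's r over the 10 libraries, were Cxcr5 with 0.99, H2-Ob with 0.98, and Igkc and Iglc3 with 0.97. Cxcr5 encodes the chemokine receptor that guides B cells to follicles, and H2-Ob a chain of the class II modulator H2-O. Cxcr5 had 3.32, 2.79, 0.48, 0.59, 0.85 and 1.86 FPKM in the Shb-inactivated libraries, against 4.32, 2.36, 1.96 and 5.82 FPKM in the wild-type libraries (log2 fold change -0.85, SE 0.37). An r above 0.8 was reached by 188 of 12796 other tested genes, or 1.47%. In a list of 26 further B cell surface proteins and transcription factors, 20 were tested, 18 were lower and 2 higher in Shb-inactivated libraries, 0 passed the adjusted test, and 12 had an r above 0.8. The median log2 fold change of that list was -0.55. All 8 tested immunoglobulin constant region genes were lower, with a median of -1.02, and 6 of them had an r above 0.8.

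Not every gene known from B cells moved with the 9. Ebf1, a transcription factor of early B cells that other cells also express, had 6.30 to 14.53 FPKM in Shb-inactivated and 7.34 to 11.10 FPKM in wild-type libraries, and its rho with Ighm was -0.19. Cd22, an inhibitory co-receptor, had 4.28, 4.80, 6.91, 4.52, 1.43 and 2.17 FPKM in the Shb-inactivated libraries, against 3.88, 2.69, 3.48 and 5.45 FPKM in the wild-type libraries. Its highest value was in Shb-inactivated replicate 3, where Cd79a was lowest. Cd72, another inhibitory co-receptor, was highest in the libraries rich in macrophage transcripts, with 11.26 and 18.14 FPKM in Shb-inactivated replicates 3 and 4 and 22.27 FPKM in wild-type replicate 3.

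Genes of B cell receptor signalling, mostly of enzymes and adaptors, formed a list of 18, of which 17 were tested. In it 12 were lower and 5 higher in Shb-inactivated libraries, 0 passed the adjusted test, and 0 had an r above 0.8 with the 9 genes, the median r being -0.28. Syk, the kinase recruited by the CD79 tails, averaged 13.9 ± 4.66 FPKM in Shb-inactivated (SD, n = 6) and 19.7 ± 13.8 FPKM in wild-type libraries (SD, n = 4). Its highest value, 40.2 FPKM, was in wild-type replicate 3. Btk averaged 2.82 ± 3.31 FPKM in Shb-inactivated and 3.78 ± 4.49 FPKM in wild-type libraries. The most abundant of the list, Cd81, a tetraspanin found on many cells, averaged 486 ± 58.3 FPKM in Shb-inactivated and 391 ± 87.7 FPKM in wild-type libraries.

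**Figure D4:**
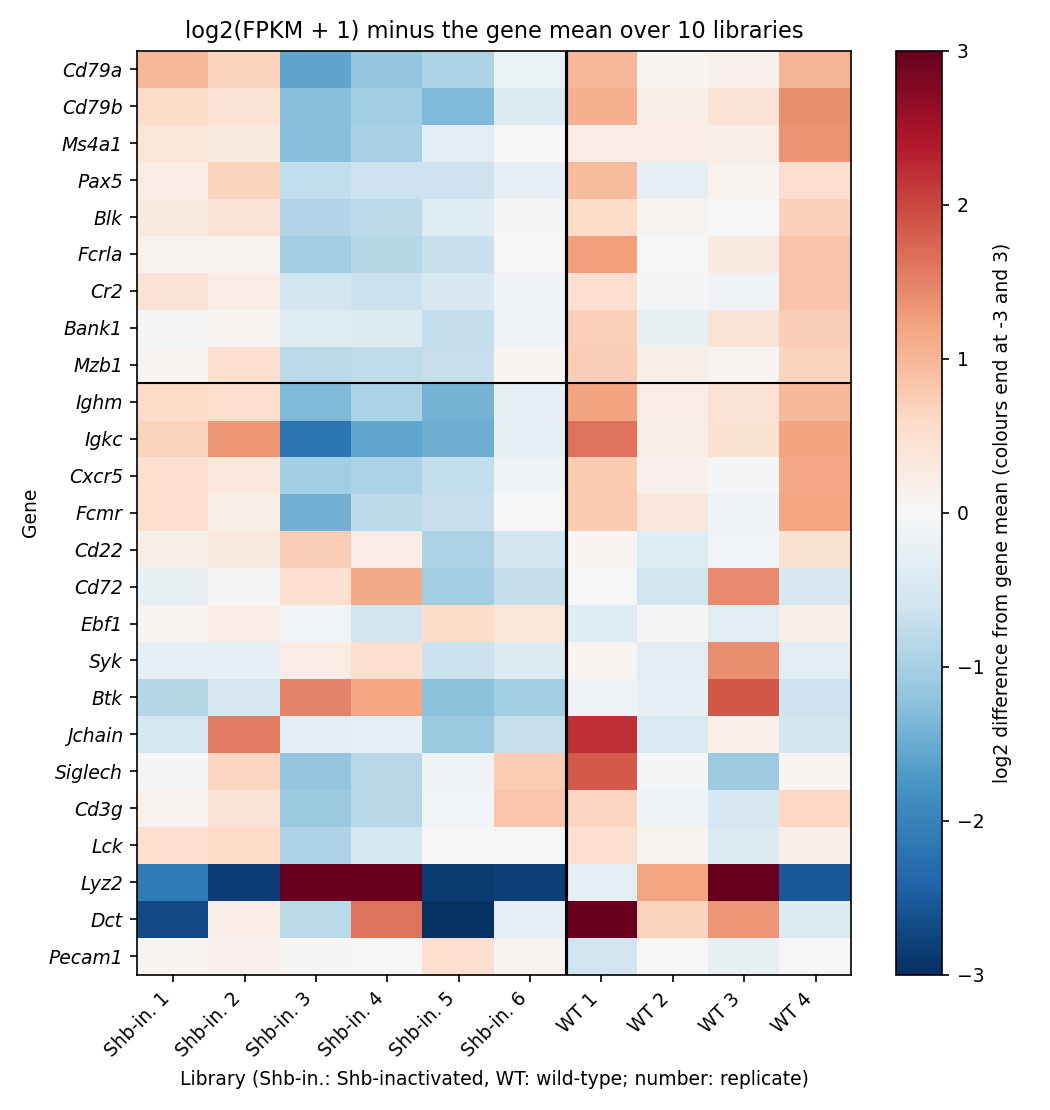
Log2(FPKM + 1) of each gene minus its mean over the 10 libraries, with 6 Shb-inactivated libraries left of the vertical line and 4 wild-type libraries right of it; the 9 B cell genes are above the horizontal line. Shb-inactivated replicates 3, 4 and 5 are lowest for all 9 genes and for Ighm, while Syk, Btk and Cd72 are highest in the libraries with the most Lyz2, a macrophage gene.

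Stages of B cell life other than the mature cell were measured with lists of their own. None of 6 precursor genes passed the filter: Igll1, the surrogate light chain, was at 0 in all 6 Shb-inactivated and in 3 of 4 wild-type libraries, and 0.02 FPKM in the other. The precursor list summed to 0.18 to 1.12 FPKM in Shb-inactivated and 0.20 to 1.68 FPKM in wild-type libraries. Jchain, which joins secreted IgM and IgA, was high in 1 library of each group, with 6.35 FPKM in Shb-inactivated replicate 2 and 10.65 FPKM in wild-type replicate 1. It was at most 1.81 FPKM elsewhere. Igha followed it, with 27.21 FPKM in Shb-inactivated replicate 2 and 42.60 FPKM in wild-type replicate 1, and rho of Jchain with Ighm was 0.42. Of 7 tested plasma cell genes, 5 were lower and 2 higher in Shb-inactivated libraries, and 1, Irf4, had an r above 0.8.

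Markers of other cells that a CD31 selection could hold moved with the 9 genes in part. All 6 tested T and NK cell genes were lower in Shb-inactivated libraries, 0 of them past the adjusted test, with a median log2 fold change of -0.23 and a median r of 0.80 with the 9 genes. The list of 11 in the files summed to 6.44 to 28.3 FPKM in Shb-inactivated and 14.1 to 35.3 FPKM in wild-type libraries. Cd2, a lymphocyte adhesion receptor, averaged 3.13 ± 1.98 FPKM in Shb-inactivated (SD, n = 6) and 5.98 ± 1.87 FPKM in wild-type libraries (SD, n = 4). Lck, of the same list, differed less, at 5.57 ± 2.46 FPKM in Shb-inactivated and 6.00 ± 1.74 FPKM in wild-type libraries. The log2 fold change was -0.87 for Cd2 and -0.15 for Lck. Siglech, which marks plasmacytoid dendritic cells, had 1.41 to 8.30 FPKM in Shb-inactivated and 1.64 to 18.73 FPKM in wild-type libraries. In the list of these cells 5 of 6 tested genes were lower, with a median log2 fold change of -0.33 and a median r of 0.62. Of 10 macrophage markers, 10 were lower with a median r of -0.46, and of 8 endothelial genes, 8 were higher. Dendritic cell genes were lower in 3 of 5 tested and had a median r of 0.12, and both tested neutrophil genes were lower with a median r of -0.20. Melanoma markers were lower in 7 of 7, at 12.4 to 342 FPKM summed in Shb-inactivated and 85.4 to 1106 FPKM in wild-type libraries. No gene of these lists passed the adjusted test, and the part of these cell types in the B cell values was not tested. With a macrophage covariate the 9 log2 fold changes ran from -1.41 to -0.59, and with a melanoma covariate from -1.28 to -0.39. Macrophage and melanoma markers were themselves lower in Shb-inactivated libraries, so these fits cannot separate their level from the group.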

How the data were processed

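RNA was sequenced from 6 Shb-inactivated and 4 wild-type libraries, prepared with a stranded total RNA kit after ribosomal RNA removal, per the labels' protocols. The authors deposited FPKM values for each gene symbol, with a decimal comma read as a decimal point. GRCm38, Cufflinks 2.2.1 and TopHat2 2.1.1 are listed, without their roles, per the submitters' processing notes; neither the annotation nor the use of strand was found in the labels. FPKM keeps no read totals, so depth is unknown and no counting interval is given.

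Genes reaching 1 FPKM in 4 or more of the 10 libraries were tested with limma 3.58.1 (R 4.3.3; moderated, with a mean-variance trend, 95% intervals) on log2(FPKM + 1), Shb-inactivated minus wild-type, without a block, and adjusted by Benjamini-Hochberg. This scale understates changes of low genes. The fit was tested on simulated data with independent noise smaller than the observed spread. That test does not show how well the fit finds differences in these libraries. For single genes an exact two-sided permutation test over 210 assignments of libraries was added, and correlations were tested with 100000 permutations (numpy 2.4.6, scipy 1.17.1). Named genes were the 9, defining genes of each cell type, the 2 most abundant of each list (a few of which are given) and the most alike, of which 1 is not reported here. Other genes, such as Igha and Btk, were named after their values were seen. The 9 genes and all lists were chosen with earlier results of these data known. Gene locations are from GENCODE vM21 on GRCm38, promoters from RefSeq on GRCm38.p6; a promoter or protein for the other genes was not used here.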

Additional observations from a re-analysis of the deposited data

Results flagged for a closer look

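Of 22 groups of values, 11 genes in each of 2 groups, 1 held a library far from the others of its group: Ms4a1 was 8.49 FPKM in wild-type replicate 4, while the other 3 wild-type libraries lay between 3.16 and 3.31 FPKM. The gap was 0.97 of the range of the group. The threshold that such a gap must pass, Dixon's 95% critical value, is passed by chance in about 1 of 20 groups. The other 8 B cell genes had no such gap in either group. Of these, Cd79a, Cd79b (15.04 FPKM), Blk, Cr2 and Bank1 were also highest in that library.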

How the results depend on the processing

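All 9 genes stayed lower in Shb-inactivated libraries in each of 21 alternatives, with single log2 fold changes from -1.68 to -0.17. In all 21, 0 of all tested genes passed the adjusted threshold, and the lowest adjusted p of any of the 9 was 0.797. Their median log2 fold change ran from -0.89 to -0.34, except for -1.28 with a pseudocount of 0.1, a scale on which low genes are compressed less. Leaving out 1 library at a time gave medians from -0.89 to -0.57. Without the 3 macrophage-rich libraries, Cd79a was at -0.56 and Ms4a1 at -0.52.

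The number of the 9 with an unadjusted limma p under 0.05 was 3 under TPM scaling, under quantile normalization and with the melanoma level as a covariate, 5 without the 2 libraries with the coarsest low values, and 4 under both other pseudocounts and with no filter. Whether replicate numbers pair the libraries was not found in the labels. Same-numbered libraries' deviations from their group means correlated at 0.44, -0.32, 0.71 and -0.55, which are of mixed sign and too few to decide. With a replicate block the median was -0.66, and 1 of 9 had an unadjusted p under 0.05. Over all tested genes, in either direction, 303 had such a p with the block. The number was 631 under TPM scaling, 463 under quantile normalization and 176 with the melanoma covariate. It was 315 without the 2 coarsest libraries, 441 and 424 with pseudocounts of 0.1 and 5, and 1022 with no filter, where more genes entered.

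The median rho with Ighm ran from 0.90 to 0.93 over 15 of 17 alternatives. It was 0.83 within the 6 Shb-inactivated libraries and 0.86 without the 3 libraries low in small nucleolar RNAs; both use fewer libraries. FPKM gives no depth, so the precision of values under 1 FPKM, such as those of Pax5, could not be stated.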
